A study of Mus musculus with 31 samples.

Results

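The cytoplasmic ribosomal protein genes were followed in 2 subcutaneous mouse tumors after a single dose of radiotherapy (RT). They were taken by symbol: Rpl or Rps followed by digits and at most 1 letter a or x, or Rplp0, Rplp1, Rplp2 and Rpsa, with pseudogene rows (symbols with -ps) left out. This gave 76 genes of the 46072 in the tables, 46 of the large and 30 of the small ribosomal subunit. Fau and Rps3a1 also encode ribosomal proteins but carry other symbols and are given apart.

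RM9 is a mouse prostate cancer line and MC38 a mouse colon cancer line. Wild-type male C57BL/6J mice received 1000000 cells under the skin of the right hind leg, and tumors that had reached 8 mm were irradiated once with 15 Gy or left untreated. Whole tumors, with cancer cells and the host cells among them, were taken at 3, 12 or 24 h after RT, and messenger RNA was sequenced in 31 libraries of 1 mouse each. Each group held 4 mice except RM9 RT 24 h, which held 3. The control mice of both tumors were untreated and are labelled with the 3 h time, so that all 3 times after RT share the same 4 controls and a change at 12 or 24 h cannot be told apart from time without RT. Each model is 1 established cell line, so that the error given is the spread between mice carrying it.

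The cytoplasmic ribosome is built from ribosomal RNA and a single copy of most ribosomal proteins, and making it takes a large part of the resources of a growing cell. The messenger RNAs of ribosomal proteins are among the most abundant in any cell and most begin with a C followed by a run of pyrimidines, the terminal oligopyrimidine (TOP) motif, through which mTOR and Larp1 control their translation and stability. Several ribosomal proteins that are not built into ribosomes, Rpl5 and Rpl11 first among them, bind Mdm2, the ubiquitin ligase that holds p53 down, which ties this family to the DNA damage response.

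The sequence around the annotated start of transcription is shown first for the members that the results turn on. RefSeq promoter windows (GRCm38.p6, 250 bases before to 50 after a start) were found for 56 of the 76 members, with 66 windows in all. Below, 25 bases before the start are followed by 25 from it, so that the 26th base is the start, and capitals mark every run of at least 7 C or T.
Rpl38, chr11:114668555-114668604, plus strand: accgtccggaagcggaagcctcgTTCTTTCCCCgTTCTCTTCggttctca
Rps27, chr3:90213624-90213673, minus strand: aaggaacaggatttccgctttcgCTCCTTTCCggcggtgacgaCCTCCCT
Rps15a, chr7:118116123-118116172, minus strand: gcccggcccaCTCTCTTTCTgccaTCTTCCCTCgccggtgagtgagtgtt
Rplp2, chr7:141447626-141447675, plus strand: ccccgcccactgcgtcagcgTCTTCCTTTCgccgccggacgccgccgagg
Rpl13a, chr7:45128721-45128770, minus strand: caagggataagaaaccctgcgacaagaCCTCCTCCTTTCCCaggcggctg
Rps7, chr12:28635929-28635978, minus strand: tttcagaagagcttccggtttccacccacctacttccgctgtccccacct
Rpl41, chr10:128549144-128549193, minus strand: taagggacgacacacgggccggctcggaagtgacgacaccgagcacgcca
Rpl5, chr5:107900503-107900552, plus strand: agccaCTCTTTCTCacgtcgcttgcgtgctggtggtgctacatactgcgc

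In Rpl38, Rps27, Rps15a and Rplp2 a pyrimidine run covered the annotated start. In Rpl13a the run lay just after it. In Rps7, Rpl41 and Rpl5 no run of this length touched it. Over all windows, a C at the start followed by at least 4 C or T was found in 19.7% of the member windows and in 2.51% of the 32851 windows of the table. A run of at least 8 C or T over the start was found in 25.8% and 3.86%. The letters CCGGAAG, on either strand, were in 36.4% of the member windows against 8.86% of all, AAGATGG in 16.7% against 6.34%, and CACGTG in 12.1% against 7.15%. These are matches of letters and do not show a site in use. Whether the annotated starts are the starts used in these tumors was not tested.

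Every member was measured in every library and passed the filter on low values (a mean of at least 0.5 TPM, transcripts per 1000000 transcripts, a level corrected for length). TPM sums to a fixed total in each library, and genes of the mitochondrial chromosome took 47.3 to 57.2% of it in RM9 and 22.5 to 40.6% in MC38. A single gene among them, mt-Nd4l, held 35.6 to 43.5% of the total in RM9 and 12.9 to 29.6% in MC38. Levels were therefore read on a second scale as well, TPM rescaled to the same total without the mitochondrial genes, called nuclear TPM below. Library depth, inferred from the commonest ratio of coverage to FPKM at 75 bases per read, was 21.4 to 29.4 M reads (M, 1000000). The RM9 RT 3 h libraries were the deepest (26.2 to 29.4 M against 23.0 to 25.1 M in RM9 controls), and MC38 control mouse 1 stood apart with 40.6% mitochondrial TPM, the highest of the MC38 libraries, and with a summed level of 10 skeletal muscle genes of 19824 nuclear TPM against 28.4 to 2789 in the other 3 controls. Of 8 epithelial markers, all were below 1 TPM in all MC38 tumors. In RM9 the keratins Krt8, Krt18 and Krt19 were at 463 to 1069, 146 to 325 and 56.3 to 158 TPM. The rest were low in RM9 too: Epcam reached 1.92 TPM, Cdh1 0.977, Cldn4 0.882 and Krt7 0.165, and Cldn7 was at 0. The epithelial label of the MC38 line was thus not borne out by any of these 8 markers.

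In control tumors the 76 genes made up 12.7 ± 0.744% of nuclear TPM in RM9 and 11.8 ± 0.327% in MC38 (SD, n = 4 each). Rplp1, a protein of the P stalk that recruits elongation factors to the large subunit, was the highest member in both, at 5107 ± 461 and 4734 ± 139 nuclear TPM, or 4.03% and 4.00% of the family's sum. Rplp0, which anchors the stalk, came next at 4199 ± 164 and 3987 ± 56.4. In RM9 they were followed by Rps12 (3986 ± 281), Rps26 (3747 ± 300) and Rps15 (3607 ± 300), none of which was separated from its neighbor by more than the SDs. In MC38 the order went on with Rps15 (3156 ± 124), Rpl41 (3068 ± 291) and Rpl19 (2863 ± 129), with Rpl41 not separated from either neighbor by more than the SDs.

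The median member stood at 1390 nuclear TPM in RM9 and at 1392 in MC38 controls. Rpl22 was the lowest member in both (357 ± 41.0 and 456 ± 42.1), next to Rps20 (405 ± 40.0 and 492 ± 39.9) and Rpl29 (543 ± 8.75 and 500 ± 15.9). Levels per transcript length thus spanned more than 10-fold between the highest and the lowest member. The mean levels of 63 members lay within 1.3-fold of each other in the 2 tumors. Rps26 was 1.76-fold and Rps12 1.75-fold higher in RM9, and Rpl14, at 1166 ± 37.0 against 716 ± 32.0, was 1.63-fold higher. On the other side, Rpl34 was 1.54-fold and Rpl27 1.53-fold higher in MC38, and Rps27 stood at 2109 ± 230 there against 1405 ± 134 in RM9.

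**Figure D1:**
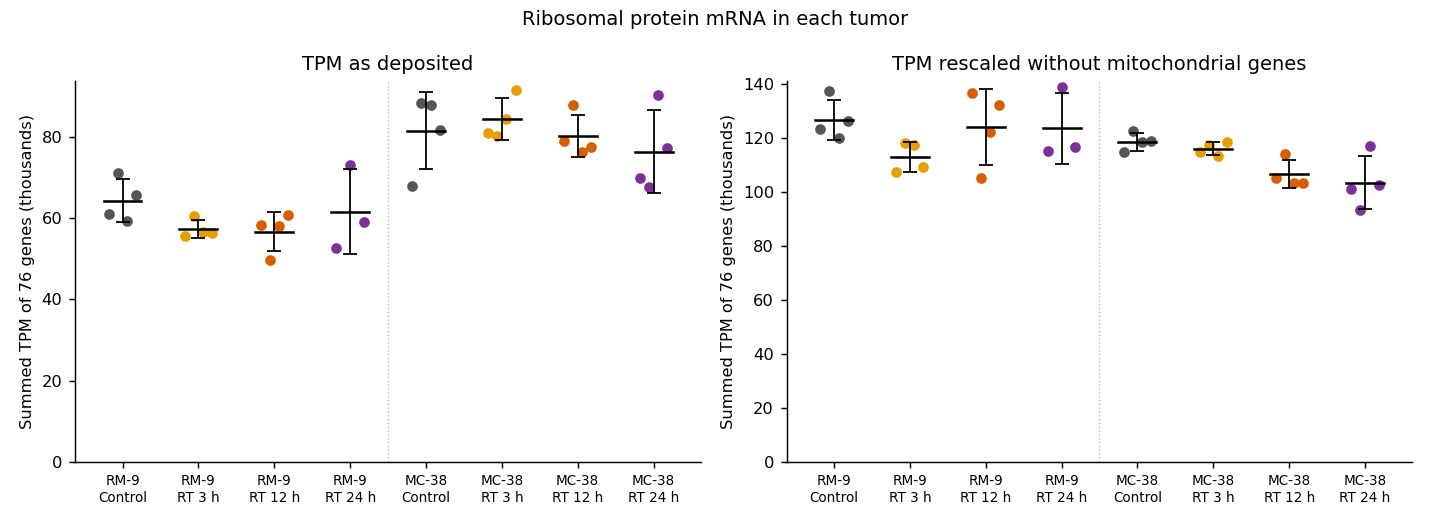
Summed level of the 76 ribosomal protein genes in each mouse (points) by group, as TPM as deposited (left) and nuclear TPM (right), both in units of 1000 TPM, with the group mean and SD. On the right the 4 MC38 RT 12 h mice lie below all 4 MC38 controls, and the 4 RM9 RT 3 h mice lie below all 4 RM9 controls. Without Rps15a (not drawn), MC38 RT 12 h mouse 2 is above MC38 control mouse 1.

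After RT, the sum over the members in RM9 was 12.3, 13.7, 12.0 and 12.6% of nuclear TPM in the controls, and 10.7, 11.8, 11.7 and 10.9% at 3 h. It was 13.7, 10.5, 12.2 and 13.2% at 12 h and 11.5, 13.9 and 11.7% at 24 h. The 3 h mice lay below every control, whereas the 12 and 24 h mice lay on both sides of them. In MC38 the controls were at 11.5, 12.3, 11.8 and 11.9%, the 3 h mice at 11.5, 11.7, 11.3 and 11.9%, the 12 h mice at 10.5, 11.4, 10.3 and 10.3%, and the 24 h mice at 10.1, 9.33, 11.7 and 10.2%. At 12 h every mouse was below every control. Without Rps15a, whose TPM is taken up below, 12 h mouse 2 (113756 nuclear TPM) lay above control mouse 1 (113466). At 24 h mouse 3 was within the range of the controls. On TPM as deposited the sum was 8.15 ± 0.948% in MC38 controls and 8.02 ± 0.52% at 12 h, with overlapping ranges, and 6.44 ± 0.533% in RM9 controls and 5.67 ± 0.49% at 12 h (SD, n = 4 each).

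TPM was also set beside the coverage column of the same tables. Library depth was itself taken from the commonest ratio of coverage to FPKM in each library. Genes read as 1 transcript therefore match by construction. For 18 members FPKM was within 1% of coverage scaled by library depth in all libraries. For 16 the ratio of the 2 varied over 1.2-fold between libraries, and for 6 over 1.5-fold. Rps15a, a small subunit protein whose gene lies at chr7:118104378-118116186 (minus strand) with 7 annotated transcripts, varied most, 4.48-fold.

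Rps15a was listed at 573, 756, 153 and 196 TPM in RM9 controls and at 153, 163, 134 and 150 at 12 h. In MC38 it was at 615, 256, 875 and 848 in controls, at 192, 191, 277 and 238 at 3 h, at 235, 246, 216 and 785 at 12 h and at 748, 229, 952 and 808 at 24 h. The values fell into a low and a high range with few between. Its depth-scaled coverage, in units of FPKM, ran without such a step, from 76.6 to 86.4 in MC38 controls and from 64.1 to 70.3 at 12 h, and from 79.2 to 102 in RM9 controls, inside the range at 12 h. The TPM change in MC38 at 3 h, -1.40 on the log2 scale, was the widest of any member and did not pass (limma, adjusted p = 0.17). On coverage it was -0.099 (adjusted p = 0.446). On coverage at 12 h Rps15a fell by 0.30 in MC38 (adjusted p = 0.0105). The cause of the step was not tested, and changes of Rps15a on TPM are read beside those on coverage.

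The first question the design asks of each tumor is which genes differ from control at each time. Changes below are log2 fold changes of log2(TPM + 0.5) from limma, fitted over all genes with the 4 groups of a tumor in 1 fit, with adjusted p-values over all genes tested and a threshold of 0.05. Since the tumors are bulk tissue, fewer cells of a type and less RNA per cell cannot be told apart in any of them.

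In RM9 tumors at 3 h, 75 of 76 members had a log2 fold change below the median of all genes. Their median log2 fold change was -0.16 on nuclear TPM where that of all genes was 0.054, a relative shift of -0.22, and it was -0.22 on TPM and -0.21 on coverage. Relative to genes with a mean of at least 100 on the same scale, it was -0.084 on nuclear TPM, -0.053 on TPM and -0.038 on coverage. By mouse, the relative median on TPM was -0.25, -0.16, -0.13 and -0.33 at 3 h against -0.027, 0.19, -0.10 and -0.054 in controls, with no overlap. Limma called 0 members lower on nuclear TPM, where 17 were lower at an unadjusted p under 0.05, and 0.215% of all genes were called lower. On TPM it also called 0 (9 at an unadjusted p under 0.05), and 0.0285% of all genes.

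At this time all 4 irradiated mice were below all 4 control mice for 23 members on nuclear TPM, against 3.99% of all genes. On TPM this held for 12 members, against 402 of 14013 genes. Rpl38, the large subunit protein that is mutated in the Tail-short mouse, had the smallest adjusted p of the members (0.08). It was at 1035, 1188, 1014 and 1101 nuclear TPM in controls and at 822, 924, 932 and 803 at 3 h, a change of -0.32. Without control mouse 3, 2 members were called. Rpl5 (0.083, adjusted p = 0.507) and Rpl3 (0.047), which shapes the peptidyl transferase center, were the members farthest above the others. Rpl22 (-0.34, adjusted p = 0.173) and Rps15a (-1.15 on TPM, -0.21 on coverage) were farthest below. The deeper sequencing of the 3 h group moved with this shift and its part was not tested.

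At 12 h the family in RM9 followed the rest of the genes. The members had a median of -0.18 on TPM as deposited against -0.19 for all genes, and of -0.038 against -0.062 on nuclear TPM, with 30 of 76 below the median of all genes on the second scale. The mitochondrial share was 54.1% at 12 h against 49.2% in controls, and 8.3% of all genes were called lower on TPM. Of the members only Rpl38 was among them, with 24 lower at an unadjusted p under 0.05.

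Rpl38 was at 512, 617, 502 and 575 TPM in RM9 controls and at 438, 352, 427 and 431 at 12 h, every irradiated mouse below every control. It fell by 0.42 (SE 0.10, adjusted p = 0.0304). On nuclear TPM the change was -0.27 (adjusted p = 0.171) and on coverage -0.21 (adjusted p = 0.363), so that the call rested on the deposited scale. It was also lost without any 1 of control mice 1, 2 and 4 and irradiated mice 1, 2 and 4, with 0 members called in each case, and 3 members were called without control mouse 3. On nuclear TPM limma called 0 members lower (2 at an unadjusted p under 0.05, and 1 higher) where 0.45% of all genes were called, and for 1 member all irradiated mice were below all controls, against 7.21% of all genes. Rps27 (0.42, adjusted p = 0.183) and Rpl31 (0.26) were farthest above the other members, the former at 2119, 1463, 1863 and 2112 nuclear TPM against 1214, 1490, 1507 and 1410 in controls.

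At 24 h, with 3 irradiated mice, the members had a median of -0.033 on nuclear TPM against -0.008 for all genes. Limma called 0 members on either scale, with 0 lower at an unadjusted p under 0.05, and called 0% of all genes lower on both. No member had all irradiated mice below all controls on nuclear TPM (2.71% of all genes did). On TPM mouse 2 had a relative median of 0.16 and the other 2 mice -0.13 and -0.14. Rpl31 (0.35 on nuclear TPM, -0.047 on coverage) and Rps27 (0.18) were farthest above and Rpl41 (-0.21) and Rps15a farthest below.

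**Figure D2:**
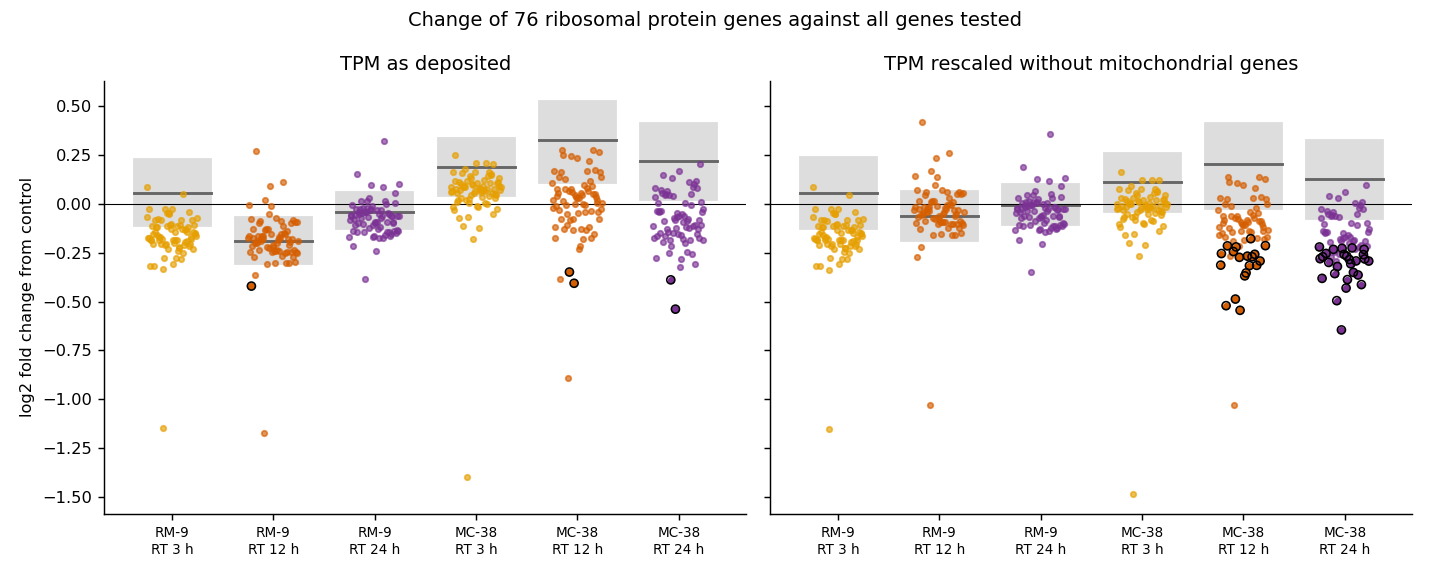
Log2 fold change against control of each ribosomal protein gene (points) in the 6 comparisons, on TPM as deposited (left) and nuclear TPM (right), with black outlines at an adjusted p under 0.05; the grey box and line give the quartiles and median of all genes tested. In MC38 at 12 and 24 h the points lie below the line of all genes on both scales, and outlined points are many more on the right.

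In MC38 tumors the members lagged behind the rest of the genes at 12 and 24 h. The median log2 fold change of the members was -0.12 at 12 h and -0.19 at 24 h on nuclear TPM, whereas that of all genes was 0.20 and 0.12, relative shifts of -0.32 and -0.31. All 76 members lay below the median of all genes at both times and on both scales. Relative to genes with a mean of at least 100 on the same scale the shifts were smaller, -0.18 and -0.25 on nuclear TPM, -0.15 and -0.21 on TPM, and -0.085 and -0.13 on coverage.

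Limma called 19 members lower at 12 h and 27 at 24 h on nuclear TPM, with none higher. Over all genes 4.22 and 2.76% were called lower, and over genes of at least 100 nuclear TPM 7.73 and 9.19%. On depth-scaled coverage 46 and 54 members were called lower, against 8.52 and 8.02% of all genes and 36.4 and 33.6% of the genes with a mean coverage of at least 100 FPKM. On TPM as deposited only Rpl13a and Rps14 were called at each time, against 2.59 and 0.548% of all genes. The mean mitochondrial share was 31.3% of TPM in controls, 24.6% at 12 h and 26.2% at 24 h, which leaves more of the fixed total to all other genes, and the medians of the members on that scale were 0.020 and -0.085.

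Single mice weighed on these counts. On nuclear TPM at 12 h, 8 members were called without control mouse 1, 6 without control mouse 4, and 12, 9 and 7 without irradiated mice 1, 3 and 4. At 24 h, 16 were called without control mouse 2, 15 without irradiated mouse 2 and 42 without irradiated mouse 3, the one mouse whose sum lay among the controls, and the count without control mouse 1 was 24. On TPM at 12 h the count was 1 without control mouse 3 (with 1 called higher), control mouse 4 or irradiated mouse 1, and 0 without irradiated mouse 3 or 4. On TPM at 24 h it was 5 without control mouse 1, 8 without irradiated mouse 3, 1 without control mouse 2 or irradiated mouse 1, and 0 without irradiated mouse 2. When only the control and 24 h groups entered the fit, 7 members were called on nuclear TPM.

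By mouse, the relative median on TPM was -0.29, -0.22, -0.36 and -0.38 at 12 h against 0.12, 0.014, -0.10 and -0.021 in controls, without overlap. At 24 h it was -0.29, -0.55, -0.071 and -0.38, and mouse 3 overlapped the controls. On nuclear TPM, all irradiated mice lay below all controls for 24 members at 12 h and 21 at 24 h, against 4.49 and 3.35% of all genes. On TPM this held for 1 and 2 members, against 309 and 141 of 15698 genes. At 12 h on TPM all irradiated mice lay above all controls for 4 members, against 5420 genes.

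**Figure D3:**
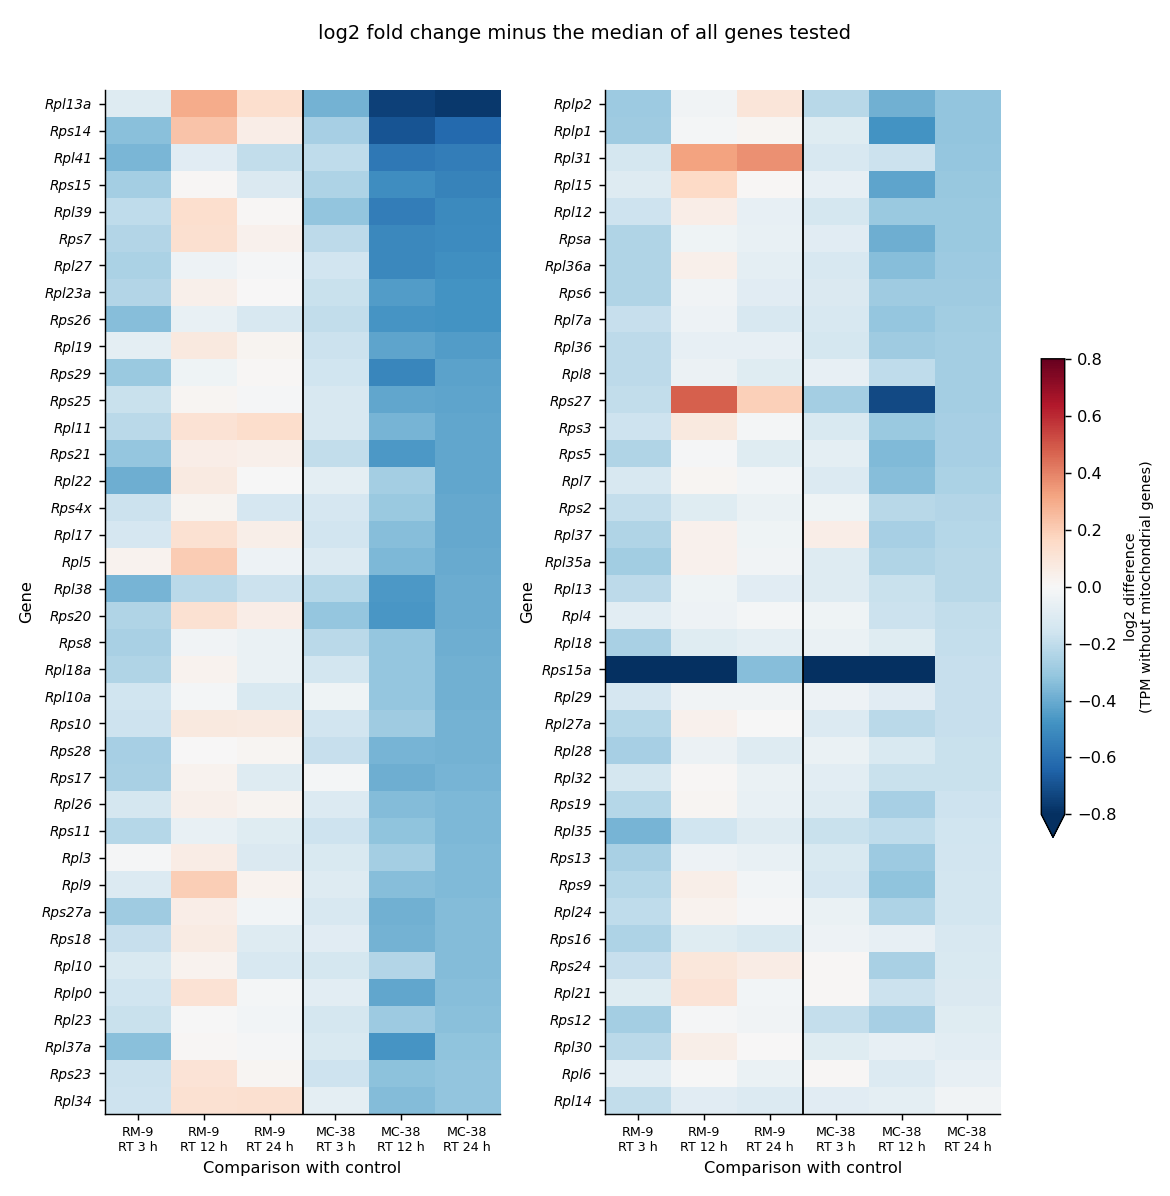
Log2 fold change on nuclear TPM minus the median of all genes, for each ribosomal protein gene (rows, ordered by MC38 RT 24 h) in the 6 comparisons (columns), on a color scale from -0.8 to 0.8. The MC38 12 and 24 h columns are below 0 in all 76 rows, the RM9 3 h column in 75, and the RM9 12 and 24 h columns hold both signs.

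Rpl13a had the largest fall among the members called on nuclear TPM. The protein sits in the large subunit and also takes part in the GAIT complex, which holds back translation of inflammatory messages after interferon gamma. Its nuclear TPM was 2675, 2595, 2587 and 2471 in MC38 controls, and 2033, 2054, 2083 and 2430 at 3 h. By 12 h it stood at 1579, 2138, 1697 and 1710, and by 24 h at 1416, 1402, 1982 and 1886. Every irradiated mouse was below every control at each time. It fell by 0.54 at 12 h (SE 0.12, adjusted p = 0.00846) and by 0.65 at 24 h (SE 0.12, adjusted p = 0.00224), and at 3 h the change was -0.27 (adjusted p = 0.231). On TPM the falls were 0.41 and 0.54 (adjusted p = 0.0491 and 0.0261), and on coverage 0.41 and 0.54 (adjusted p = 0.00626 and 0.000582). In RM9 it was at 1904, 2275, 1905 and 1956 in controls and at 2850, 1811, 2145 and 2793 at 12 h, so that the groups overlapped.

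Rps14, a small subunit protein at the platform near the decoding site, was at 2502, 2476, 2234 and 2215 nuclear TPM in MC38 controls, at 2199, 2026, 2099 and 2134 at 3 h, at 1668, 1808, 1610 and 1635 at 12 h, and at 1610, 1552, 1865 and 1665 at 24 h. No irradiated mouse at any time reached the lowest control. It fell by 0.49 at 12 h (SE 0.07, adjusted p = 0.00177) and by 0.50 at 24 h (adjusted p = 0.00033), and by 0.64 and 0.65 on coverage. In RM9 the 12 h mice were at 3005, 1655, 2161 and 2721 against 1888, 2385, 1955 and 2091 in controls, on both sides of them.

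Rps7, which binds Mdm2 outside the ribosome, had FPKM within 1% of scaled coverage in all libraries, a match that the scaling gives to any gene read as 1 transcript. Its nuclear TPM was 1064, 1100, 1024 and 1002 in MC38 controls, 825, 893, 808 and 844 at 12 h and 788, 751, 882 and 798 at 24 h. The irradiated mice at both times were below all controls. It fell by 0.31 (SE 0.05, adjusted p = 0.00444) and by 0.38 (SE 0.05, adjusted p = 0.000547).

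Rps27, a zinc finger protein of the small subunit, changed at 1 time on this scale. Its nuclear TPM was 1787, 2099, 2257 and 2291 in MC38 controls, 1502, 1687, 1350 and 1336 at 12 h, and 1811, 1788, 2186 and 1827 at 24 h. The 12 h mice were below all controls and the 24 h mice were among them. It fell by 0.52 at 12 h (SE 0.12, adjusted p = 0.0115), and at 24 h the change was -0.15 (adjusted p = 0.451), although on coverage it fell at both times, by 0.44 and 0.42 (adjusted p = 0.00529 and 0.00367). On TPM the 12 h change was -0.38 (adjusted p = 0.0629).

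**Figure D4:**
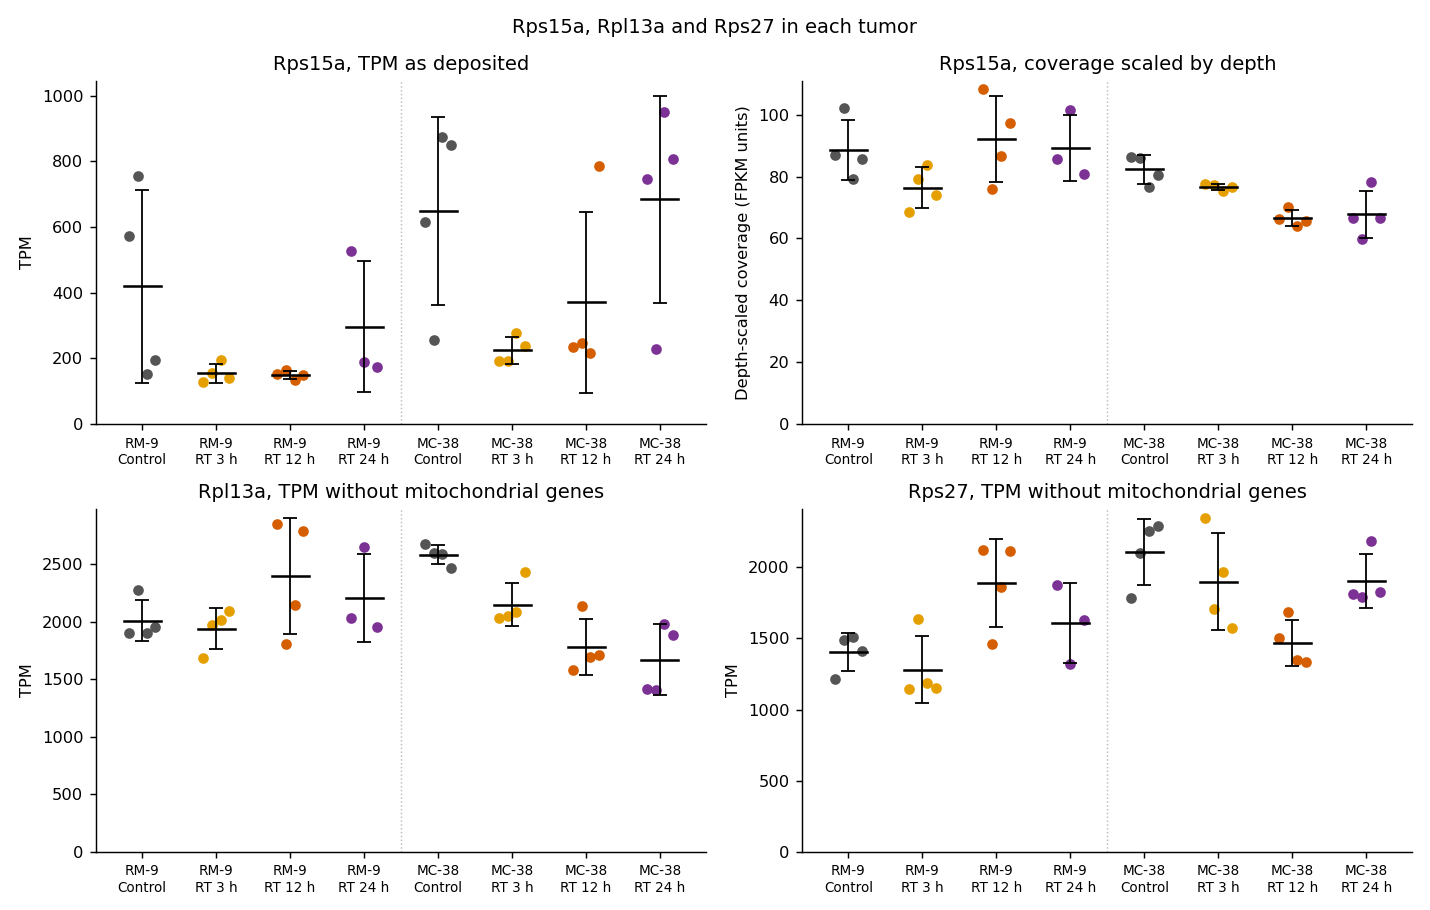
Values of each mouse (points) with mean and SD by group for Rps15a in TPM as deposited, Rps15a in depth-scaled coverage (FPKM units), and Rpl13a and Rps27 in nuclear TPM. Rps15a steps between about 200 and over 500 TPM within groups while its coverage runs evenly, and Rpl13a and Rps27 are lower than all controls in the 4 MC38 RT 12 h mice.

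Among the other members called in MC38, Rpl41, the smallest ribosomal protein, was at 2662, 3116, 3139 and 3354 nuclear TPM in controls and at 2432, 2445, 2382 and 2217 at 12 h, a fall of 0.37 (adjusted p = 0.0224), and of 0.43 at 24 h (adjusted p = 0.011). Rps15, near the decoding center, fell by 0.29 and 0.41 (adjusted p = 0.0182 and 0.00269), from 3081, 3127, 3077 and 3338 to 2552, 2719, 2469 and 2564 at 12 h. Rpl39, at the exit of the peptide tunnel, fell by 0.35 and 0.39 (adjusted p = 0.0336 and 0.0263). In all these members each 12 h mouse was below each control. The smallest changes called were those of Rps27a (0.18 lower at 12 h) and Rpl10 (0.22 lower at 24 h). At the other end, Rps16 (0.14, adjusted p = 0.199) and Rpl30 (0.14, adjusted p = 0.519) at 12 h, and Rpl14 (0.095) and Rpl6 (0.059) at 24 h, were the members farthest above the others, and on coverage their changes were -0.030, -0.00025, -0.027 and -0.062.

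At 3 h in MC38 the median of the members was -0.016 on nuclear TPM against 0.11 for all genes, and 72 of 76 were below the latter. Limma called 0 members lower on nuclear TPM (3 at an unadjusted p under 0.05, with 0.147% of all genes called) and 0 on TPM (1 at an unadjusted p under 0.05, with 0.0127% of all genes called). All irradiated mice were below all controls for 4 members on nuclear TPM, against 1.8% of all genes, and for 0 on TPM, against 153 of 15698 genes. The relative medians by mouse on TPM, -0.12, -0.089, -0.16 and -0.14, overlapped those of the controls. Rpl37 (0.16) and Rps24 (0.12) were farthest above the others and Rpl13a and Rps15a farthest below.

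By subunit, 10 of 46 large and 9 of 30 small subunit genes were called lower in MC38 at 12 h on nuclear TPM, with medians of -0.098 and -0.16, and 15 and 12 at 24 h, with medians of -0.19 and -0.22. Of the P stalk, Rplp0 and Rplp1 were called at 12 h. Rplp1 was at 4919, 4764, 4624 and 4630 in controls and at 3825, 4278, 3789 and 3784 at 12 h, a fall of 0.27 (adjusted p = 0.0274), and Rplp0 fell by 0.21 (adjusted p = 0.0471). Rplp2 changed by -0.18 (adjusted p = 0.106). At 24 h none of the 3 passed (Rplp0 -0.21, adjusted p = 0.0604; Rplp1 -0.19, adjusted p = 0.124), whereas on coverage all 3 were called lower, with a median of -0.31.

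Of 10 members known to bind Mdm2 (Rpl5, Rpl11, Rpl23, Rpl26, Rps3, Rps7, Rps14, Rps20, Rps27 and Rps27a), 4 were called lower at 12 h and 6 at 24 h on nuclear TPM, and all 10 at both times on coverage. Of all 76 members 19 and 27 were called on nuclear TPM and 46 and 54 on coverage, and of all genes 4.22 and 2.76%, and 8.52 and 8.02%. The median changes of the 10 on nuclear TPM were -0.17 and -0.25. Rpl5 and Rpl11, which enter the large subunit together with the small ribosomal RNA known as 5S, were not called at 12 h (-0.16, adjusted p = 0.189, and -0.17, adjusted p = 0.14). Both fell at 24 h, Rpl5 by 0.28 (SE 0.09, adjusted p = 0.0446) and Rpl11 by 0.29 (SE 0.08, adjusted p = 0.0262). Rpl5 was at 919, 1156, 1290 and 1000 nuclear TPM in controls and at 921, 823, 958 and 865 at 24 h, and the lowest control lay within the irradiated range. Rpl11 went from 1328, 1550, 1474 and 1336 to 983, 1094, 1370 and 1219, also with overlap. In RM9 none of the 10 was called on nuclear TPM at any time, and their medians were -0.15, 0.055 and 0.020 at 3, 12 and 24 h.

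Mdm2 itself stood at 1270 ± 396 nuclear TPM in RM9 controls and at 22.6 ± 2.91 in MC38 controls (SD, n = 4 each). It was at 2188 ± 175 in RM9 at 12 h (log2 change 0.83, adjusted p = 0.0524 on nuclear TPM and 0.0413 on TPM) and rose to 40.7 ± 6.06 in MC38 at 12 h (0.83, adjusted p = 0.00219). Of 12 p53 target genes, 7, 1 and 0 were called higher at 3, 12 and 24 h in RM9 on nuclear TPM, and 4, 5 and 4 in MC38, with 1 lower at 24 h in MC38. Of all genes 0.985, 0.0652 and 0% were called higher in RM9, and 0.724, 19.6 and 13.3% in MC38. Cdkn1a, the p53 target that arrests the cell cycle, rose by 0.67 in RM9 at 12 h (adjusted p = 0.0478), and in MC38 changed by 0.28 (adjusted p = 0.0812) on nuclear TPM and rose by 0.42 on TPM (adjusted p = 0.0216).

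Whether the 2 tumors differed was tested by the interaction of tumor and RT over all 31 libraries. On nuclear TPM at 12 h, the change of 4 members was lower in MC38 than in RM9, against 0.682% of all genes, and that of none was higher. Rps27 differed most, by -0.94 (SE 0.20, adjusted p = 0.0053, and -0.65 on coverage), followed by Rpl13a (-0.78, adjusted p = 0.0115), Rps14 (-0.65, adjusted p = 0.0175) and Rps7 (-0.38, adjusted p = 0.0312). At 24 h only Rpl13a passed (-0.77, adjusted p = 0.0363), against 0.135% of all genes, and at 3 h none did. On coverage 9 members were called lower in MC38 at 12 h and 5 at 24 h, with none higher, against 1.42 and 0.66% of all genes and 7.66 and 2.66% of genes with a mean coverage of at least 100 FPKM.

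On TPM as deposited the directions at 12 h were mostly the opposite. Of the members 11 were called higher in MC38 than in RM9 and 1 lower, Rps27 (-0.65, SE 0.21, adjusted p = 0.0168). Over all genes 44.9% were called higher and 0.469% lower. The mean mitochondrial share at this time was 54.1% in RM9 (49.2% in controls) and 24.6% in MC38 (31.3% in controls). Rps16 was among the 11 (0.58, adjusted p = 0.0118), at 712, 852, 682 and 815 TPM in RM9 controls and 614, 552, 668 and 639 at 12 h, and at 690, 835, 820 and 870 in MC38 controls and 934, 1114, 924 and 914 at 12 h. Rpl14 (0.56, adjusted p = 0.0124) moved likewise, from 565, 630, 561 and 615 to 490, 432, 498 and 511 in RM9 and from 412, 519, 514 and 524 to 579, 681, 556 and 549 in MC38. For both genes the irradiated mice were below all controls in RM9 and above all controls in MC38. None of the 11 passed on nuclear TPM or on coverage. The count of 11 was 3 without MC38 control mouse 1, 6 without MC38 RT 12 h mouse 2, and 6, 5, 6 and 7 without RM9 control mice 2 and 4 and RM9 RT 12 h mice 1 and 2. The single member lower became 2 without MC38 RT 12 h mouse 2 and 3 without RM9 control mouse 2 or RM9 RT 12 h mouse 2.

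Fau, which makes Rps30 as a ubiquitin-like fusion, and Rps3a1 changed by -0.12 and -0.11 on nuclear TPM in MC38 at 12 h, and their median relative to all genes was -0.32 there and -0.26 at 24 h. Limma called 0 of these 2 genes in the 6 comparisons on TPM and nuclear TPM, with 1 lower at an unadjusted p under 0.05 in MC38 at 24 h on nuclear TPM and 1 in RM9 at 12 h on TPM. On coverage 2 were called lower in MC38 at 12 h and 1 at 24 h.

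Of 9 paralogs of members, 8 were high enough to test. In MC38 at 12 h, 3 of them were called lower on nuclear TPM. Rps27rt, a retrocopy of Rps27, was at 248, 242, 226 and 225 in controls and at 174, 185, 166 and 168 at 12 h, and fell by 0.44 (adjusted p = 0.00235). Rpl22l1, a paralog of Rpl22, fell by 0.54 (adjusted p = 0.00846), from 124 ± 9.29 to 85.4 ± 14.4 (SD, n = 4 each), while Rpl22 itself changed by -0.072 (adjusted p = 0.633). Rps4l, a low gene, fell by 1.00 (adjusted p = 0.0267). Rps27l, a p53 target in addition to a paralog of Rps27, was at 352 ± 10.0 in controls and 308 ± 13.3 at 12 h (-0.19, adjusted p = 0.075). The difference between tumors at 12 h passed on nuclear TPM for Rpl22l1 (-0.75, adjusted p = 0.0163) and Rps27rt (-0.56, adjusted p = 0.0284). Rpl3l, the striated muscle form of Rpl3, was at 47.6 nuclear TPM in MC38 control mouse 1 and at 0 to 10.2 in the other MC38 mice.

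There were 260 rows named as Rpl or Rps pseudogenes, of which 146 were tested in MC38, and 23 were called lower at 12 h and 39 at 24 h on nuclear TPM with none higher, with medians relative to all genes of -0.33 and -0.31. In RM9 limma called 0 of 147 on this scale (36, 7 and 5 lower at an unadjusted p under 0.05 at 3, 12 and 24 h), with relative medians of -0.22, 0.0020 and -0.062 at 3, 12 and 24 h. How closely these copies match the members in sequence was not computed. How reads that match both were assigned is not given in the sources used here. The split of reads between a member and its copies is therefore uncertain.

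**Figure D5:**
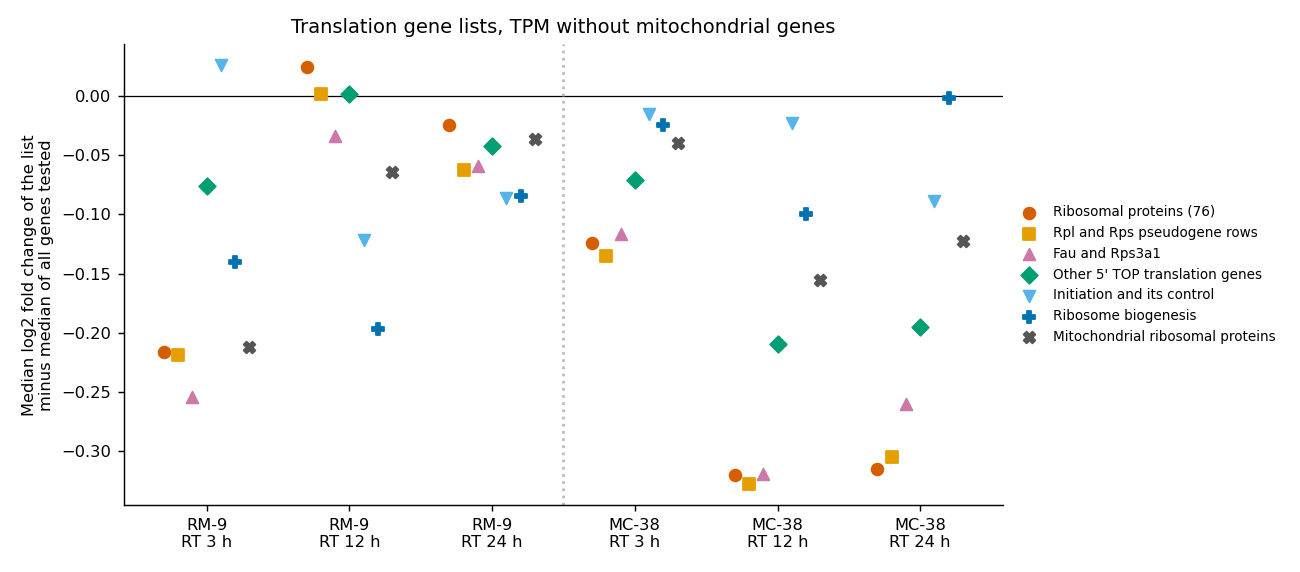
Median log2 fold change on nuclear TPM minus the median of all genes, for the ribosomal protein genes and 6 other lists, in the 6 comparisons. The ribosomal protein genes, their pseudogene rows and the pair Fau and Rps3a1 lie near -0.3 in MC38 at 12 and 24 h, whereas ribosome biogenesis genes lie at -0.10 and -0.0018.

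Other genes of the translation machinery were counted in MC38 beside all genes, of which 19.6% were called higher and 4.22% lower at 12 h, and 13.3 and 2.76% at 24 h, on nuclear TPM. Of 18 further genes of the TOP class, 2 rose and 2 fell at 12 h and 4 fell at 24 h on nuclear TPM, with relative medians of -0.21 and -0.20. Eif3a, the largest subunit of the initiation factor eIF3, rose by 0.45 (adjusted p = 0.0149) and Pabpc1, which binds the poly(A) tail, by 0.38 (adjusted p = 0.0183) at 12 h. Of 40 ribosome biogenesis genes, 6 rose and none fell at 12 h, and 4 rose at 24 h. Polr1a, the largest subunit of RNA polymerase I, rose by 0.55 (adjusted p = 0.00587) and Rrn3, its initiation factor, by 0.34 (adjusted p = 0.0223). Of 16 genes of initiation and its control, 6 rose at 12 h, Larp4 by 0.60 (adjusted p = 0.0137) and the mTOR partner Rptor by 0.53 (adjusted p = 0.00836), and 2 fell at 24 h. Of 77 mitochondrial ribosomal protein genes tested, 2 rose and 9 fell at 12 h, Mrpl54 by 0.60 (adjusted p = 0.0018), and 4 rose and 3 fell at 24 h, with a relative median of -0.16 at 12 h and -0.12 at 24 h.

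In RM9 at 12 h these lists differed between the scales as well. On TPM as deposited 17 of 40 ribosome biogenesis genes fell, Rrp12 by 0.61 (adjusted p = 0.0255) and Nol6 by 0.54 (adjusted p = 0.0246), together with 12 of 77 mitochondrial ribosomal protein genes, 3 of 16 initiation genes and 2 of 18 TOP genes. Over all genes 8.3% were called lower on TPM, where their median change was -0.19, and 0.45% on nuclear TPM. On nuclear TPM limma called 0 of each list, with 25, 18, 4 and 2 lower at an unadjusted p under 0.05, and Rrp12 and Nol6 changed by -0.49 and -0.41 (adjusted p = 0.0752 and 0.0751). The relative median was -0.20 for biogenesis and 0.024 for the ribosomal protein genes. At 3 h in RM9 the mitochondrial ribosomal protein genes had a relative median of -0.21, beside -0.22 for the cytoplasmic family, with 0 called by limma and 23 lower at an unadjusted p under 0.05.

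Markers of host cells moved in the same comparisons. The summed level of 9 macrophage markers was 1427 to 2604 nuclear TPM in MC38 controls, 487 to 1276 at 12 h and 1133 to 1489 at 24 h, and 7 and 2 of them were called lower. Of 8 T cell markers 6 fell at 12 h and 3 at 24 h, with sums of 38.3 to 58.7 in controls, 21.8 to 41.1 at 12 h and 21.2 to 34.0 at 24 h. Of 7 neutrophil markers tested, 1 fell at 12 h and 1 rose at 24 h, and of 7 fibroblast markers 1 rose at 12 h. Over all genes 19.6 and 13.3% were called higher at 12 and 24 h, and 4.22 and 2.76% lower. The summed level of 9 neutrophil markers was 36.9 to 50.3 in controls and 40.3 to 61.4 at 12 h. At 24 h it was 218, 59.6, 75.8 and 85.3, with every mouse above every control. In RM9 the macrophage sum was 1184 to 1870 in controls, 847 to 1330 at 3 h and 667 to 1446 at 12 h, with none called on nuclear TPM (4 and 6 lower at an unadjusted p under 0.05) and 5 on TPM at 12 h, and 1 T cell and 1 epithelial marker fell at 12 h on nuclear TPM. Over all genes 0.45% were called lower in RM9 at 12 h on nuclear TPM and 8.3% on TPM. Skeletal muscle genes summed to 513 to 4824 in RM9 controls and 6.62 to 1844 at 3 h, and to 12.6 to 643 in MC38 at 12 h, with none called (7 lower at an unadjusted p under 0.05 in RM9 at 3 h and 0 in MC38 at 12 h). The part of these cells in the levels of the ribosomal protein genes was not tested. Without MC38 control mouse 1, the library richest in muscle genes, the relative medians of the members were -0.28 at 12 h and -0.28 at 24 h on TPM.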

How the data were processed

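The deposited tables list, per gene, coverage, FPKM and TPM as the authors computed them, and no read counts. TPM and FPKM were taken as deposited, and the deposited coverage, scaled to FPKM units by library depth, served as an alternative. The submitters' processing notes name GRCm39 and bcl2fastq 2.17, whereas the gene coordinates match GENCODE M21 on GRCm38 (48 of the 76 members in full, 63 on chromosome and at least 1 end). The aligner and counting program are not given in the sources used here. Libraries were stranded and single-end (75 bases).

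Groups came from the labels, 1 mouse per library. TPM was also rescaled without genes of the mitochondrial reference. Values were tested as log2(TPM + 0.5) with limma 3.58.1 (R 4.3.3, eBayes with trend) over genes with a mean of at least 0.5 TPM, 14013 in RM9 and 15698 in MC38 (15329 and 16289 without mitochondrial genes), with Benjamini-Hochberg adjustment over all of them. The tumors were compared by an interaction over 15358 genes (16266). No test was made on scores or lists. On simulated data in which 200 genes changed by 1 on the log2 scale, 88.5% were recovered in RM9 at 12 h (9 false calls) and 66.5% in MC38 at 12 h (8 false calls). The simulated noise was independent between genes. The largest fall from control called among the members on nuclear TPM was 0.65, so these rates do not give the power for member changes. P-values weigh a difference between groups against the spread between the mice sampled, which limma moderates over genes. Depth behind a TPM value is known only per library, so no counting interval is given. Tables were handled with Python 3.11.15, pandas 2.3.3, numpy 2.4.6 and scipy 1.17.1, and drawn with matplotlib 3.10.9.

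Genes named were the called members with the largest changes, members and paralogs picked by role, the members farthest above and below the others, the highest and lowest members in controls, those called in the difference between tumors, and the top genes of each other list at 12 h. Rps7, Rps15, Rpl39, Rpl34 and other members named only from the rescaled scale were chosen after their values were seen. The members, the lists and the rule for naming were chosen with earlier results of these data known. Alternatives were other pseudocounts, filters, scalings and fits, a replicate block, each mouse left out in turn and, added after seeing the data, coverage. Single macrophage markers are not reported here.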

Additional observations from a re-analysis of the deposited data

Results flagged for a closer look

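Of 49 groups of 4 mice tested for a mouse far from the others, 2 held one, where chance gives about 1 in 20. Rpl38 was at 352 TPM in RM9 RT 12 h mouse 2 and at 427 to 438 in the other 3 mice. Rps15a was at 785 TPM in MC38 RT 12 h mouse 4 and at 216 to 246 in the other 3, whereas its depth-scaled coverage in this group ran from 64.1 to 70.3.

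The change at 12 h on TPM as deposited differed between tumors (MC38 minus RM9, limma interaction) for Rps16 (0.58, adjusted p = 0.0118), Rpl14 (0.56, adjusted p = 0.0124), Rpl6 (0.45, adjusted p = 0.0323) and Rps27 (-0.65, adjusted p = 0.0168). Among these, Rps27 also passed on nuclear TPM (-0.94, adjusted p = 0.0053) and on coverage (-0.65, adjusted p = 0.0302).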

How the results depend on the processing

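The number of members called depended on the scale. In MC38 at 12 h, 2 members were lower on TPM, 19 on nuclear TPM, 46 on scaled coverage, 57 on coverage with median-ratio scaling and 47 on TPM with median-ratio scaling, and 1 without a trend, without a filter or with only the 2 groups compared. At 24 h the counts were 2, 27, 54, 53 and 45, with 1 without a filter and 0 with only the 2 groups, and 7 with only the 2 groups on nuclear TPM. In RM9 at 12 h the single call became 0 on coverage, coverage with median-ratio scaling, median-ratio scaling, nuclear TPM, without a filter and with only the 2 groups. The 11 members higher in MC38 than in RM9 at 12 h became 0 on both coverage scales, with median-ratio scaling and on nuclear TPM, and 4 without a filter. The 1 lower became 9 on coverage, 11 on coverage with median-ratio scaling, 11 with median-ratio scaling, 2 at a mean of at least 5 TPM and 4 on nuclear TPM. At 24 h the 0 lower became 5, 1, 1 and 1 on coverage, coverage with median-ratio scaling, median-ratio scaling and nuclear TPM. Without a filter the relative median in MC38 was -0.089 at 12 h and 0.010 at 3 h, since the median of all genes then includes genes at 0. The causes of the other differences were not tested.

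Leaving out 1 mouse at a time gave 0 to 3 members lower and 0 to 1 higher in MC38 at 12 h on TPM, 0 to 8 lower at 24 h, and 0 to 3 in RM9 at 12 h. On nuclear TPM it gave 6 to 17 and 15 to 42 in MC38 at 12 and 24 h and 0 to 2 in RM9 at 3 h. The tumor difference at 12 h on TPM ranged from 3 to 12 higher and 1 to 3 lower. Relative medians on TPM ranged from -0.34 to -0.28, -0.39 to -0.23 and -0.15 to -0.081 in MC38 at 12, 24 and 3 h. In RM9 they ranged from -0.26 to -0.16, -0.062 to 0.094 and -0.13 to 0.020 at 3, 12 and 24 h.

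Mouse numbers did not pair the samples: the correlation of deviations over 45 pairs of the same number ran from -0.48 to 0.55 (median -0.066), with 12 over 0.1. With the number as a replicate block, 2, 2 and 1 members were called on TPM (MC38 12 and 24 h, RM9 12 h), and 15 and 22 on nuclear TPM in MC38, and the relative medians were -0.31, -0.30 and -0.12 in MC38 at 12, 24 and 3 h and -0.22, 0.0070 and -0.039 in RM9 at 3, 12 and 24 h. On TPM the block changed no call of the named members.

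Named changes that were not called on TPM changed sign as follows. On nuclear TPM, MC38 12 h values became -0.034 for Rpl10, -0.072 for Rpl22, -0.088 for Rpl23, -0.072 for Rpl3 and -0.093 for Rps4x, and RM9 12 h values 0.052 for Rpl11, 0.011 for Rpl22, 0.14 for Rpl5 and 0.051 for Rplp0. With median-ratio scaling, MC38 12 h values became -0.25 for Rpl10, -0.29 for Rpl22, -0.30 for Rpl23, -0.29 for Rpl3, -0.079 for Rpl30, -0.079 for Rps16 and -0.31 for Rps4x, those at 24 h -0.063 for Rpl14 and -0.099 for Rpl6, and that at 3 h -0.016 for Rps24. RM9 12 h values became 0.040 for Rpl10, 0.12 for Rpl11, 0.082 for Rpl22, 0.0081 for Rpl23, 0.068 for Rpl3, 0.21 for Rpl5, 0.12 for Rplp0, 0.064 for Rps27a and 0.031 for Rps4x, and Rpl3 at 3 h -0.019. On coverage, MC38 12 h values became -0.13 for Rpl10, -0.24 for Rpl22, -0.23 for Rpl23, -0.20 for Rpl3, -0.00025 for Rpl30, -0.030 for Rps16 and -0.24 for Rps4x, and those at 24 h -0.027 for Rpl14 and -0.062 for Rpl6. RM9 12 h values became 0.019 for Rpl10, 0.092 for Rpl11, 0.026 for Rpl22, 0.025 for Rpl3, 0.16 for Rpl5, 0.10 for Rplp0, 0.051 for Rps15a, 0.097 for Rps27a and 0.010 for Rps4x, with -0.0019 for Rpl5 at 3 h, and -0.047 for Rpl31 and 0.013 for Rps15a at 24 h.

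With single mice left out, changes of sign spanned, in MC38 at 12 h, -0.13 to 0.038 for Rpl11, -0.042 to 0.14 for Rpl22, -0.080 to 0.096 for Rpl23, -0.031 to 0.14 for Rpl3, -0.17 to 0.10 for Rpl5, -0.16 to 0.030 for Rplp2, -0.12 to 0.012 for Rps27a and -0.019 to 0.098 for Rps4x. In RM9 they spanned -0.014 to 0.10 for Rpl3 at 3 h, -0.059 to 0.24 for Rpl31 and -0.059 to 0.043 for Rpl5 at 12 h, and -0.90 to 0.0033 for Rps15a at 24 h.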
